A study of Mus musculus with 5 samples.

Results

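The H2-Q and H2-T genes of mouse chromosome 17 encode class I molecules of the major histocompatibility complex (MHC). CpG methylation was followed over a span of the H2-Q genes, whose first and last windows with reads bound chr17:35457001-35608000, and a span of the H2-T genes, chr17:36140001-36332000 (mm9). Both were chosen by their methylation levels in Fbxl10 T/T and WT cells. Within them, CpGs outside CCGG, the cutting site of MspI, were grouped into 1-kb windows. The spans held 38 of the 115091 windows in which at least 1 library had a read, 16 in the H2-Q span and 22 in the H2-T span. The 9 genes named for the spans were H2-Q4, H2-Q6, H2-Q7, H2-Q10, H2-T3, H2-T10, H2-T22, H2-T23 and H2-T24.

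Class I heavy chains pair with beta-2-microglobulin, and the classical chains H2-K1 and H2-D1 present peptides from inside the cell to cytotoxic T cells. The Q and T genes are nonclassical relatives that arose by repeated duplication and differ widely in where they are expressed and in what they bind. FBXL10, also called KDM2B, binds unmethylated CpG islands through a zinc finger and brings a Polycomb repressive complex 1 to them; RING1B is the ubiquitin ligase of that complex, and EED and EZH2 are subunits of Polycomb repressive complex 2, which methylates histone H3.

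The study measured DNA methylation by reduced representation bisulfite sequencing, in which MspI fragments are size-selected and converted so that unmethylated cytosine reads as T. There were 5 libraries of mouse embryonic stem (ES) cells, 1 per genotype: Fbxl10 T/T, Ring1B -/-, Eed -/-, Ezh2 -/- and WT. Fbxl10 T/T and WT cells were of strain C57BL/6J, grown with serum and LIF on feeder cells that were depleted before use, and harvested at passage 17; what T stands for is not given in the sources used here. Ring1B -/-, Eed -/- and Ezh2 -/- cells were described only as grown in serum and LIF, with no strain or passage, so their genotype and these differences from WT cannot be told apart. With 1 library per genotype no difference had a replicate check, and all 4 mutants were set against the same WT library.

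Paralogous sequence can limit mapping, so depth is given first: it was moderate in Fbxl10 T/T and WT and low in the other mutants. The median number of reads per CpG in the H2-Q and H2-T spans was 17 and 17 in Fbxl10 T/T, between 2 and 5.5 in Ring1B -/-, Eed -/- and Ezh2 -/-, and 33 and 38 in WT. Over all autosomes and the X chromosome the median was 25 in Fbxl10 T/T and 37 in WT. No CpG of the spans had more than 156 reads in any library, whereas single CpGs elsewhere reached 52495 in Fbxl10 T/T and 52092 in WT. At the CpGs of the spans, 99.4 to 100% of the reads of the opposite strand showed G, so few T reads can come from C-to-T variants against mm9. No RNA was measured here, so the ES cell label could be checked only through methylation: the promoter window of Pou5f1, a pluripotency gene that lies between the spans, was at 10.9% in Fbxl10 T/T (55 reads) and 2.94% in WT (136 reads).

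No gene annotation of mm9 was at hand, so genes were placed by sequence. RefSeq promoters (GRCm38.p6, 250 bases before to 50 after the start) were matched to the stretches of mm9 that the overlapping sequence contexts in the tables spell out. Of the 9 genes, 7 had a promoter in the RefSeq table, and 4 were placed at exactly 1 position with 0 mismatches over at least 18 bases: H2-Q4, H2-Q6, H2-Q10 and H2-T3. H2-Q7, H2-T22 and H2-T23 were not placed, and H2-T10 and H2-T24 were not analysed here. In the H2-T span 1 more promoter was placed, that of Gm10499. Windows that no placed promoter reached are given by position, with no gene name.

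The 3 placed Q promoters next to which CpGs were read are shown first because these genes anchor the results. Capitals mark, on the printed strand, matches to GGGATTNCC (a kappa B site), GTTTCACTT (the core of an interferon-stimulated response element, ISRE) and TGACG (a half-site of the cyclic AMP response element); in textbook class I promoters these elements bind NF-kappa B, interferon regulatory factors and CREB family proteins.
H2-Q4 promoter, GRCm38.p6 chr17:35379367-35379666, + strand: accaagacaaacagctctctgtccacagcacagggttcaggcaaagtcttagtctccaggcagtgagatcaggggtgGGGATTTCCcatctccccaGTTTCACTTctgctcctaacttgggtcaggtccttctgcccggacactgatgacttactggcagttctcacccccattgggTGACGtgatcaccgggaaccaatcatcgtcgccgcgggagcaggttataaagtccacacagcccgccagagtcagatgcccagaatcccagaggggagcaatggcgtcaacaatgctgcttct
H2-Q6 promoter, GRCm38.p6 chr17:35424600-35424899, + strand: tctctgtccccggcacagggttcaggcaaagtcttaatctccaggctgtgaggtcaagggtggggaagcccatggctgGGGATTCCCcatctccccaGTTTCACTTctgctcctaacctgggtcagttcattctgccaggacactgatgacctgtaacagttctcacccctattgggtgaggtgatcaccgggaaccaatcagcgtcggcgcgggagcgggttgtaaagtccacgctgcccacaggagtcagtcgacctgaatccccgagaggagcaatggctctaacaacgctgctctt
H2-Q10 promoter, GRCm38.p6 chr17:35469839-35470138, + strand: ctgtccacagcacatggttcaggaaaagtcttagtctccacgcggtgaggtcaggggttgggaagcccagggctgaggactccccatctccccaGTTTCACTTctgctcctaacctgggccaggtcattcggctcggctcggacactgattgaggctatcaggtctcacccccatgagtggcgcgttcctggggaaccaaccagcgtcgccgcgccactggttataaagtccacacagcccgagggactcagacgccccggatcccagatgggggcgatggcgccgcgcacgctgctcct

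H2-Q4, H2-Q6 and H2-Q10 each carried the ISRE core at about the same distance from the start, first base at -154, -153 and -156, as did H2-D1 at -151. On either strand this motif was in 131 of 32851 RefSeq promoters of the same length (0.399%), and the promoters of H2-Q7, H2-T3 and H2-T22 held it too, while those of H2-Q2 and H2-T23 did not. The kappa B letters were in the promoters of H2-Q4, H2-Q6, H2-Q7, H2-D1 and H2-K1, not in those of H2-Q10 and H2-T3, and in 0.938% of all promoters. TGACG was far less selective, in 20.8% of all promoters; it was at -73 in H2-Q4, where its CG is the CpG at -70 that the libraries read. A match is a description of letters, not of binding. Aligned end to end, the H2-Q4 and H2-Q6 promoters were 78.4% identical and the H2-Q10 and H2-D1 promoters 82.6%, while H2-T3 was 52.5 to 53.5% identical to H2-Q4, H2-Q6 and H2-Q10. The H2-Q10 promoter held 19 CpGs, H2-Q6 11, H2-Q4 9 and H2-T3 2, against a median of 7 over all RefSeq promoters.

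The stretches below are the longest that the tables spell out in the windows the results turn on (mm9, + strand), and they show how close the CpGs sit and how alike the copies are. Capitals mark the CpGs outside CCGG that were read in both Fbxl10 T/T and WT; CpGs inside CCGG stay in lower case.
H2-Q span, no gene placed, chr17:35496583-35496622: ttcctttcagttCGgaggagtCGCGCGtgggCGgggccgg
H2-Q4, first window, chr17:35516695-35516753: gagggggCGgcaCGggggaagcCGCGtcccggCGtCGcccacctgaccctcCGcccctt
H2-Q4, second window, chr17:35517106-35517137: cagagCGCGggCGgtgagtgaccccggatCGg
H2-Q6, chr17:35562080-35562119: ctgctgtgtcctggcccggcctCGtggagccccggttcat
H2-Q span, window with the largest difference, chr17:35576332-35576360: cccggccCGCGtaccCGaccggggtccgg
H2-Q10, chr17:35607256-35607297: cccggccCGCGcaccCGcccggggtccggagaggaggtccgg
H2-Q span, first window, chr17:35457786-35457847: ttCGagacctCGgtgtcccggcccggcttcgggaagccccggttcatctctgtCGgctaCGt
H2-T span, window at 85.5 kb, chr17:36220848-36220889: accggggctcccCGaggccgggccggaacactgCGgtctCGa
H2-T span, Gm10499, chr17:36282621-36282692: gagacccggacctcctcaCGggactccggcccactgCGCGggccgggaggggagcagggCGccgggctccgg
H2-T span, window at 160.5 kb, chr17:36295054-36295097: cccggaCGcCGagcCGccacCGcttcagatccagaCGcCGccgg
H2-T span, window at 169.5 kb, chr17:36304675-36304706: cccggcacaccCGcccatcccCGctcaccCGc
H2-T span, window at 181.5 kb, chr17:36316177-36316220: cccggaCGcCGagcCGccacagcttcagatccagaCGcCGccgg

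The H2-Q10 stretch lay 222 to 263 bases after the H2-Q10 start, the H2-Q6 stretch 285 to 324 bases after its start, and the H2-Q4 stretches 133 to 191 and 544 to 575 bases after theirs. The Gm10499 stretch lay 202 to 273 bases after that gene's start. Some stretches were close copies of each other. The stretches at 160.5 and 181.5 kb of the H2-T span shared 43 of 44 bases, those at H2-Q10 and at the window with the largest difference shared 27 of 29, and the stretch at 85.5 kb of the H2-T span matched, on the opposite strand, 37 of 42 bases of the first H2-Q window.

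In both spans Fbxl10 T/T cells carried far more methylation than WT cells. Over the 120 CpGs of the H2-Q span read in both libraries, 63.2% of reads were methylated in Fbxl10 T/T (2840 reads) and 20.2% in WT (5012 reads), a difference of 43.0 percentage points with a 95% interval of 40.8 to 45.0. Over the 89 shared CpGs of the H2-T span the level was 58.3% in Fbxl10 T/T (2014 reads) and 15.6% in WT (4163 reads), a difference of 42.7 points (40.2 to 45.1). The difference was almost the same in both spans although they lie apart. This contrast chose the spans, so its values are given as a description with no test, and intervals here and throughout cover counting error only.

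A window was tested where at least 3 CpGs were read in both libraries with at least 30 summed reads in each, and was called where the levels differed by 20 points or more. In the H2-Q span 8 of 9 such windows were higher in Fbxl10 T/T, in the H2-T span 7 of 8, and none was lower. With CpGs inside CCGG kept, 9 of 11 and 7 of 13 were higher and 1 in each span was lower. At that setting 8602 of 64090 windows of the autosomes and X were higher, and the share lower is not given here. With CpGs inside CCGG left out, 22.5% of 28657 windows of the autosomes and X were higher and 8.95% lower. Among those between 0 and 10% in WT, 21.7% of 17717 were higher. Since the rule used this contrast, nothing is read from the excess. The other 21 windows of the spans had too few shared CpGs or reads. The smallest difference that reached 20 points was 35.1, at chr17:35457001-35458000, and the largest that did not was 5.55, at chr17:35458001-35459000, the adjoining window, where WT was already at 32.3%.

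**Figure D1:**
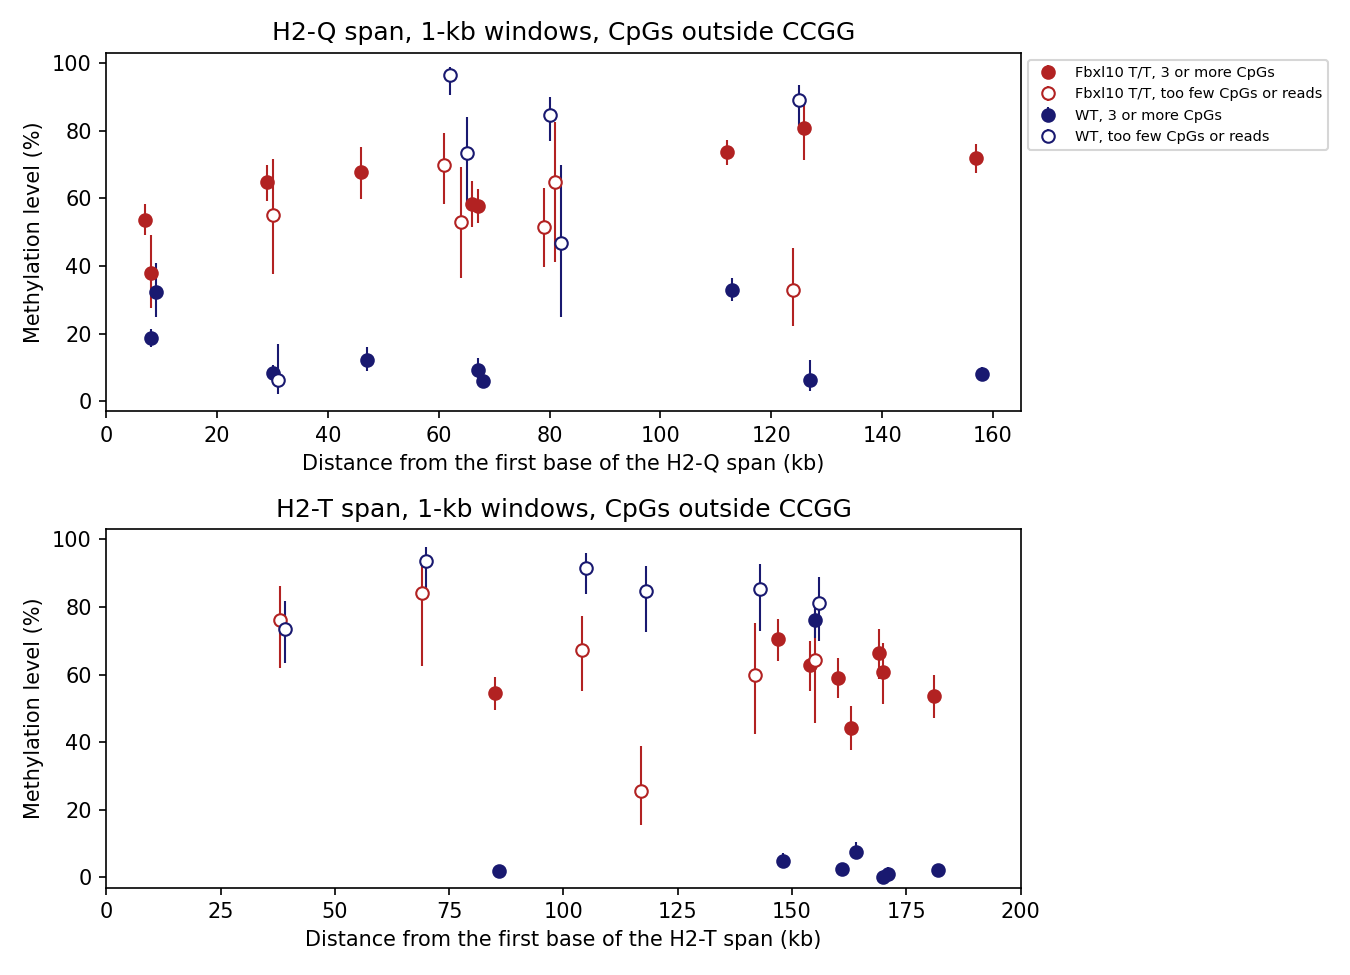
Methylation level (%) of 1-kb windows against distance from the first base of each span (kb), H2-Q above and H2-T below, for Fbxl10 T/T (red) and WT (dark blue), which are drawn 0.5 kb to either side of the window's centre. Filled points are windows with at least 3 shared CpGs and 30 reads, open points have fewer of either but at least 10 reads, and bars are 95% Wilson intervals; filled red points lie at 37.8 to 80.7% and all filled WT points but 1 at 32.9% or lower.

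Among the Q genes, H2-Q4 (which encodes the Qb-1 antigen) was the best covered. Its 26 CpGs, from -70 to +700 bases, were at 58.1% in Fbxl10 T/T (565 reads) and 7.22% in WT (984 reads). The single promoter CpG that was read, at -70 inside the TGACG match printed above, was at 65.5% in Fbxl10 T/T (29 reads, 47.3 to 80.1) and 19.2% in WT (52 reads, 10.8 to 31.9). The 25 CpGs after the start, from +140 on, were at 57.6% in Fbxl10 T/T and 6.55% in WT. Single H2-Q4 CpGs were between 25 and 86.5% in Fbxl10 T/T and between 0 and 28.6% in WT. The ranges overlapped only slightly, and the 25% came from 4 reads at +140.

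H2-Q4 spans 2 of the tested windows. At chr17:35516001-35517000 the level was 58.4% in Fbxl10 T/T (197 reads) and 9.37% in WT (363 reads), and at chr17:35517001-35518000 it was 57.9% in Fbxl10 T/T (368 reads) and 5.96% in WT (621 reads). The differences, 49.0 points (41.2 to 56.2) and 51.9 points (46.4 to 57.1), were alike within their intervals. In the shallow libraries the first window was at 0% in Ring1B -/- (20 reads), 0% in Eed -/- (2 reads) and 11.1% in Ezh2 -/- (9 reads) at the CpGs shared with WT. The second was at 16.7% in Ring1B -/- (18 reads), 0% in Eed -/- (21 reads) and 9.52% in Ezh2 -/- (21 reads).

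H2-Q6, one of the genes of the Qa-2 group of antigens, differed from H2-Q4 in its WT level. Its 9 CpGs after the start were at 73.8% in Fbxl10 T/T (515 reads) and 32.9% in WT (753 reads). The 5 CpGs from +307 to +440 ran from 50 to 77.8% in Fbxl10 T/T and from 1.92 to 21.8% in WT, whereas the 4 from +935 to +954 ran from 64.7 to 82.5% in Fbxl10 T/T and from 35.9 to 50.5% in WT. WT methylation was thus lower in the first group of CpGs than in the second, and Fbxl10 T/T was higher at all 9 CpGs. No CpG outside CCGG was read between the groups or nearer the start, so no course along the gene is read from them. No CpG of the H2-Q6 promoter itself was read in both libraries.

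H2-Q10, which encodes a secreted class I molecule made mainly in liver, had 18 CpGs read in both libraries between +199 and +636. They were at 71.9% in Fbxl10 T/T (416 reads) and 8.01% in WT (712 reads), a difference of 63.9 points (58.8 to 68.3). The SD among these CpGs was 31.5 points in WT and 17.5 points in Fbxl10 T/T, but the WT value includes CpGs at +549 and +555 that had 1 methylated read each. The 11 CpGs with at least 10 reads in both libraries ranged from 0 to 21.8% in WT and from 47.1 to 83.8% in Fbxl10 T/T. The larger SD in WT is therefore not read as a wider spread. In the shallow libraries the same window, chr17:35607001-35608000, was at 4.35% in Ring1B -/- (23 reads), 4.76% in Eed -/- (21 reads) and 3.70% in Ezh2 -/- (27 reads). None of these differed from WT beyond the counting interval.

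**Figure D2:**
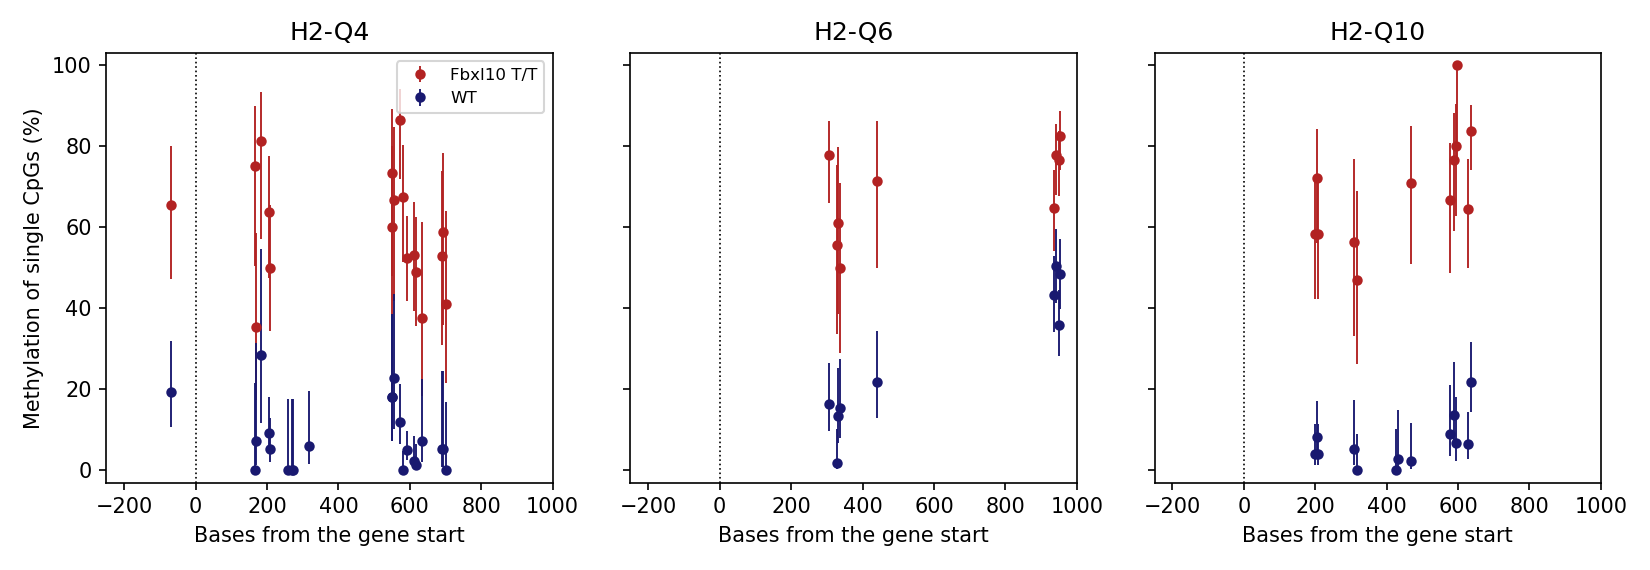
Methylation (%) of single CpGs outside CCGG against bases from the gene start for H2-Q4, H2-Q6 and H2-Q10 in Fbxl10 T/T (red) and WT (dark blue), for CpGs with at least 10 reads in the library drawn. Bars are 95% Wilson intervals and the dotted line is the start; H2-Q4 and H2-Q10 lie low in WT throughout, at 28.6% or lower, while the H2-Q6 CpGs at 935 to 954 bases stand at 35.9 to 50.5% in WT.

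The largest difference of either span belonged to a window with no placed gene, chr17:35576001-35577000, between the H2-Q6 and H2-Q10 starts. It was at 80.7% in Fbxl10 T/T (88 reads) and 6.14% in WT (114 reads), 74.5 points higher (63.3 to 82.1). Its stretch is the near copy of the H2-Q10 stretch printed above. In the RefSeq gene order H2-Q7 and Gm8752 follow H2-Q6 before H2-Q10. In Ring1B -/- the shared CpGs were at 33.3% (12 reads) against 5.56% in WT, in Eed -/- at 18.8% (16 reads) against 3.33% in WT, and Ezh2 -/- had no read.

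Before H2-Q4 in the span, 2 further windows stood out. The window chr17:35479001-35480000 was at 64.8% in Fbxl10 T/T (315 reads) and 8.36% in WT (730 reads). The window chr17:35496001-35497000 was at 67.9% in Fbxl10 T/T (137 reads) and 12.1% in WT (323 reads). The first window of the span, chr17:35457001-35458000, had the highest WT level of any higher window with no placed gene, 18.6% (838 reads), and was at 53.7% in Fbxl10 T/T (449 reads). RefSeq lists H2-Q1, H2-Q2 and H2-Q3 before H2-Q4. H2-Q1 had no promoter in the RefSeq table to match, and neither H2-Q2 nor H2-Q3 was placed.

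In the H2-T span WT started lower still. The 7 higher windows had a median of 59.1% in Fbxl10 T/T and 2.08% in WT, against 66.3% in Fbxl10 T/T and 8.86% in WT for the 8 of the H2-Q span. Pooled over their shared CpGs, these windows were at 57.4% in Fbxl10 T/T (1595 reads) and 3% in WT (3468 reads) in the H2-T span, and at 65.0% in Fbxl10 T/T (2485 reads) and 14.3% in WT (4454 reads) in the H2-Q span.

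The window chr17:36304001-36305000 had no methylated read among 282 in WT (0 to 1.34%) and was at 66.5% in Fbxl10 T/T (155 reads). The next window, chr17:36305001-36306000, was at 60.7% in Fbxl10 T/T (107 reads) and 1.10% in WT (273 reads). The window of Gm10499, chr17:36282001-36283000, was at 70.7% in Fbxl10 T/T (208 reads) and 4.82% in WT (477 reads). Its 5 CpGs with at least 10 reads in both libraries ranged from 50 to 80.6% in Fbxl10 T/T and from 0 to 10.7% in WT.

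The called H2-T window with the smallest difference, chr17:36298001-36299000, was at 44.2% in Fbxl10 T/T (224 reads) and 7.61% in WT (473 reads), and it was uneven: its 10 CpGs with at least 10 reads in both libraries ranged from 7.14 to 64.7% in Fbxl10 T/T and from 0 to 16% in WT. The windows that hold the copies sharing 43 of 44 bases had similar levels. The window chr17:36295001-36296000 was at 59.1% in Fbxl10 T/T (264 reads) and 2.52% in WT (555 reads). The window chr17:36316001-36317000 was at 53.6% in Fbxl10 T/T (233 reads) and 2.08% in WT (576 reads). The window chr17:36220001-36221000, which lay well before the others, was at 54.5% in Fbxl10 T/T (404 reads) and 1.92% in WT (832 reads). Its stretch had near copies in 2 H2-Q windows, both given above: chr17:35457001-35458000 was at 53.7% in Fbxl10 T/T and 18.6% in WT, and chr17:35479001-35480000, which shared 33 of 36 bases, was at 64.8% in Fbxl10 T/T and 8.36% in WT. In WT the levels of both H2-Q windows were above that of the H2-T window beyond the counting intervals. In Fbxl10 T/T only that of the second was (59.3 to 69.8%, against 49.6 to 59.2% in the H2-T window). These levels cover whole windows, and the copied bases alone were not compared.

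H2-T3, the thymus leukaemia antigen of intestinal epithelium, gave no value. Its promoter was placed, yet no CpG outside CCGG within 1 kb of its start was read in both Fbxl10 T/T and WT. H2-T23 (Qa-1, which presents a leader peptide to natural killer cell receptors), H2-T22 and H2-T10 (ligands of gamma delta T cells) and H2-T24 were not tied to any window. The H2-T values are therefore statements about windows, not about these genes.

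Near-identical sequence can send reads to the wrong copy, so recurrence was counted. Of the 20-base words spelled in each of the 15 higher windows, 0 to 29.4% recurred elsewhere in the sequence that the tables spell out over the genome. The highest shares were 29.4% at chr17:36304001-36305000, 25.7% at the second H2-Q4 window and 24% at chr17:36295001-36296000. The share was 10.6% at the first H2-Q4 window and 16.7% at H2-Q10. None of 30 words recurred at H2-Q6 and none of 10 at chr17:35576001-35577000, whose stretch is nonetheless a near copy of that of H2-Q10. How reads of unspelled copies were assigned was not tested.

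**Figure D3:**
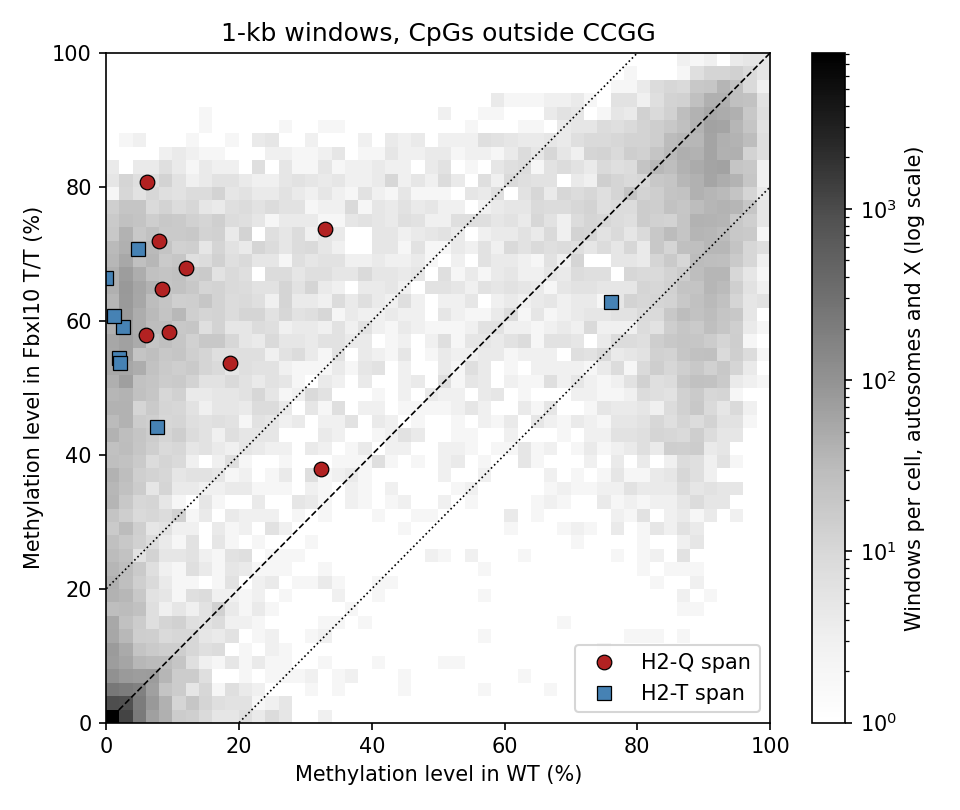
Methylation level in Fbxl10 T/T against that in WT (both %), for 1-kb windows of the autosomes and the X chromosome (grey, number of windows on a log scale), with the 9 tested H2-Q windows (red circles) and 8 tested H2-T windows (blue squares). The dashed line marks equal levels and the dotted lines a difference of 20 points; 15 of the 17 coloured windows lie above the upper dotted line.

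The levels that the spans reached in Fbxl10 T/T can be set beside those of other higher windows. Over all 3846 windows that were below 10% in WT and at least 20 points higher in Fbxl10 T/T, the Fbxl10 T/T level had a median of 57.1%, with 28.1 and 75.9% at the 5th and 95th percentiles. Over the 5969 below 40% in WT, as all 15 higher windows of the spans were, the median was 59.8%, with 31.1 and 79.4% at those percentiles. The 15 windows lay at 44.2 to 80.7%. The window at chr17:35576001-35577000, at 80.7%, lay above both 95th percentiles. It had the fewest Fbxl10 T/T reads of the 15 (88), and its interval, 71.2 to 87.6%, includes both percentiles.

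Single CpGs showed both directions: those low in WT were mostly higher in Fbxl10 T/T, and those high in WT were mostly lower. With at least 10 reads in both libraries, 160 CpGs of the spans could be read. Of the 97 that were under 10% in WT and sat in windows of 3 or more such CpGs, 93 were at least 20 points higher in Fbxl10 T/T. None of the 97 was below its WT level, and a fall of 20 points was not possible there. Over the autosomes and X 18.5% of 275183 such CpGs were at least 20 points higher. At 10 to 30% in WT it was 34 of 38 (57.5% of 18037 over the autosomes and X), and at 30 to 70% it was 6 of 9 (40.6% of 10456). Since this contrast chose the spans, nothing is read from the excess.

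Of the 15 CpGs at 70% or more in WT, 14 had a lower level in Fbxl10 T/T, 9 of them by at least 20 points, and none was higher by that much. Over the autosomes and X 41.1% of 52080 such CpGs were lower by at least 20 points and 0.463% higher. In windows of 1 or 2 CpGs it was 8 of 11, with a median difference of -25.4 points, and the autosomes and X gave 45.9% of 33350 and a median of -17.4 points. These CpGs were grouped by their WT level, and how much of the shift comes from that grouping was not tested.

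The largest differences in this direction were at 2 lone CpGs. That in the window chr17:36252001-36253000 was at 25.5% in Fbxl10 T/T (51 reads, 15.5 to 38.9) and 84.6% in WT (52 reads, 72.5 to 92.0). That in chr17:35574001-35575000 was at 32.8% in Fbxl10 T/T (61 reads, 22.3 to 45.3) and 89.0% in WT (109 reads, 81.7 to 93.6). The Polycomb mutants, with few reads, were also below WT at both. Ring1B -/- was at 50% (14 reads) at the first and 77.8% (9 reads) at the second. Eed -/- was at 63.6% (11 reads) and 60% (10 reads), and Ezh2 -/- at 50% (6 reads) and 42.9% (7 reads). The next in the H2-Q span were a CpG in chr17:35529001-35530000, at 51.5% in Fbxl10 T/T and 84.6% in WT, and a pair in chr17:35511001-35512000, at 70% in Fbxl10 T/T and 96.6% in WT. The CpG was at 100% in Ring1B -/-, 71.4% in Eed -/- and 57.1% in Ezh2 -/- (7 reads each). The pair was at 100% in each of these mutants (4 reads each). The lone CpG at 32.8% lay 2 windows before chr17:35576001-35577000, which had the largest positive difference. In the H2-T span the next were lone CpGs at 60% in Fbxl10 T/T and 85.4% in WT (chr17:36277001-36278000) and at 67.2% in Fbxl10 T/T and 91.7% in WT (chr17:36239001-36240000). The former had no read in the Polycomb mutants. The latter was at 80% in Ring1B -/- (5 reads), 100% in Eed -/- (7 reads) and 75% in Ezh2 -/- (8 reads).

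The 1 tested window that was high in WT, chr17:36289001-36290000, was at 62.8% in Fbxl10 T/T (156 reads) and 76.1% in WT (284 reads), 13.2 points lower in Fbxl10 T/T and short of the 20 points of a call.

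**Figure D4:**
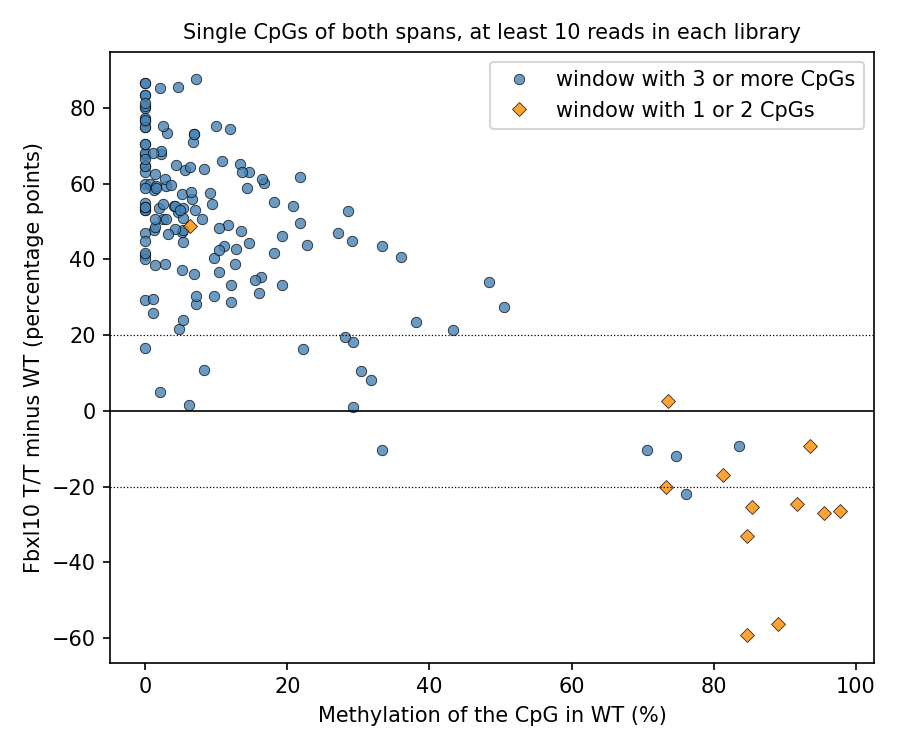
Difference between Fbxl10 T/T and WT (percentage points) against the level in WT (%) for the 160 single CpGs of both spans with at least 10 reads in each library; circles are CpGs in windows of 3 or more such CpGs and diamonds those in windows of 1 or 2. Dotted lines mark 20 points in either direction: 134 CpGs are at least that much higher, 9 at least that much lower, and the lower ones all start at 70% or more in WT.

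The windows that were higher in Fbxl10 T/T were also looked up in the 3 Polycomb mutants, at the CpGs shared with WT. Of the 15 windows, 11 had such CpGs in Ring1B -/- (59 CpGs), 11 in Eed -/- (64 CpGs) and 14 in Ezh2 -/- (87 CpGs). Pooled over them, the Ring1B -/- level did not differ from the WT level beyond the counting interval, and the Eed -/- and Ezh2 -/- levels were lower. Pooling weights each window by the reads of the library, so a mutant and WT mix the windows in different shares. Ring1B -/- was at 16.8% (202 reads) against 13.0% in WT, a difference of 3.87 points (-0.804 to 9.74). Eed -/- was at 6.35% (252 reads) against 12.6% in WT, -6.22 points (-8.87 to -2.36). Ezh2 -/- was at 4.53% (265 reads) against 10.3% in WT, -5.73 points (-7.82 to -2.42). The window chr17:36220001-36221000, at 1.93% in WT, gave 91 of the 252 Eed -/- reads but only 828 of the 3684 WT reads set against them. With all CpGs weighted alike, the differences were 2.84 points in Ring1B -/-, -4.26 in Eed -/- and -2.77 in Ezh2 -/-. Whether the differences hold with windows weighted alike in both libraries was not tested, so no shift of genotype is read from them.

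In the H2-T span the reads at hand were almost free of methylation in all 3 mutants, but only 3 of the 7 windows were read in Ring1B -/- and in Eed -/-, and the window chr17:36220001-36221000 alone gave 59 of the 64 Ring1B -/- reads and 91 of the 99 Eed -/- reads. Eed -/- had none of 99 reads methylated (95% Wilson upper limit 3.74%), Ezh2 -/- none of 154 (upper limit 2.43%), and Ring1B -/- was at 1.56% of 64 reads. WT was at 1.94%, 2.94% and 1.88% at the CpGs compared in each case. In the H2-Q span Ring1B -/- was at 23.9% (138 reads) against 16.0% in WT, Eed -/- at 10.5% (153 reads) against 16.4% in WT, and Ezh2 -/- at 10.8% (111 reads) against 16.7% in WT.

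The other windows that were higher in Fbxl10 T/T, outside the spans, showed shifts of 1.57 points or less in these mutants. They were at 8.72% in Ring1B -/- against 7.15% in WT, at 6.16% in Eed -/- against 7.16% in WT, and at 6.64% in Ezh2 -/- against 7.18% in WT. Fbxl10 T/T was at 56.4% there, against 7.55% in WT.

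**Figure D5:**
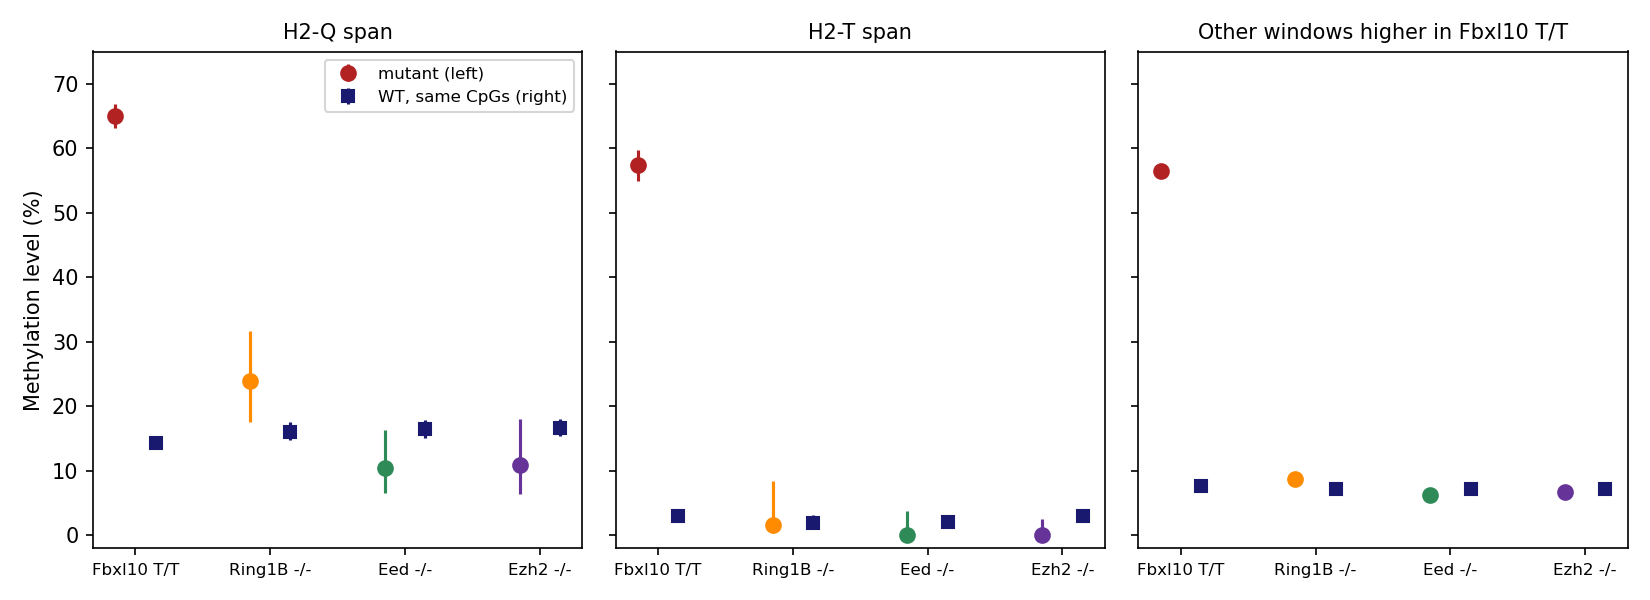
Pooled methylation level (%) of the windows that were at least 20 points higher in Fbxl10 T/T, in the H2-Q span, the H2-T span and the rest of the autosomes and X, for each mutant (circle, left) and for WT at the same CpGs (square, right). Bars are 95% Wilson intervals; only the Fbxl10 T/T points, at 65.0, 57.4 and 56.4%, stand above 25%.

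Few windows of the spans were deep enough for a call in these libraries, 1 in Ring1B -/-, 2 in Eed -/- and 2 in Ezh2 -/-, and none was called. Over the autosomes and X, 1.37% of windows were called higher in Ring1B -/-, 0.412% in Eed -/- and 0.226% in Ezh2 -/-, and 0.934, 1.04 and 1.14% lower in the same 3 (20 points or more, with p under 0.05 in Fisher's exact test, two-sided, with Benjamini-Hochberg adjustment over all windows tested). That test compares the reads of 2 libraries, not genotypes. The smallest adjusted p in the spans by this test was 0.121, for Eed -/- at chr17:35496001-35497000, where none of 42 reads was methylated against 10.9% in WT. The window chr17:36220001-36221000 was deep enough in all 3, at 1.69% in Ring1B -/- (59 reads), 0% in Eed -/- (91 reads) and 0% in Ezh2 -/- (43 reads), against 1.72 to 2.01% in WT.

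Below that depth, 4 of 10 windows in Ring1B -/- had a difference interval above 0, 1 of 9 in Eed -/- and none of 12 in Ezh2 -/-, and none in any of the 3 had one below 0. The share of equally shallow windows of the autosomes and X with such an interval was not counted, so nothing is read from these counts. The Ring1B -/- windows were chosen here after their values were seen and all lay in the H2-Q span. At H2-Q6 Ring1B -/- was at 83.3% (18 reads, 60.8 to 94.2), Eed -/- at 66.7% (18 reads) and Ezh2 -/- at 25% (16 reads), against 44.3% in WT at the same 4 CpGs, those from +935 to +954. The Ring1B -/- difference there was 39.0 points (16.0 to 50.7). At those 4 CpGs Fbxl10 T/T was at 64.7 to 82.5%. The 40.9 points of Fbxl10 T/T for this window cover 9 CpGs, so they are not comparable with the Ring1B -/- difference. At chr17:35496001-35497000 Ring1B -/- was at 39.1% (23 reads, 22.2 to 59.2) against 10.9% in WT. The remaining 2 were the second H2-Q4 window and the window with the largest difference in Fbxl10 T/T, given above. A few reads from the same fragment end count at several CpGs, so these intervals are too narrow.

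Other genes of class I presentation were taken from a list of 28 genes, chosen with earlier results of these data known. RefSeq gave a promoter for 21, of which 10 were placed and 8 had a tested window. In this contrast 2 of the 8 were at least 20 points higher in Fbxl10 T/T, where 22.5% of all windows were, and none was lower. H2-K1, a classical class I gene, was at 46.7% in Fbxl10 T/T (392 reads) and 1.41% in WT (780 reads). H2-M3, which presents N-formylated peptides, was at 52.5% in Fbxl10 T/T (80 reads) and 10.4% in WT (154 reads).

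H2-D1, the other classical gene, was at 16.7% in Fbxl10 T/T (287 reads) and 3.66% in WT (465 reads), a difference of 13.1 points (8.65 to 18) that fell short of the call, although its promoter is the closest in sequence to that of H2-Q10. With only CpGs read in all 5 libraries the same window differed by 23.8 points. Irf1, an interferon regulatory factor that acts on class I promoters, was at 6.67% in Fbxl10 T/T (345 reads) and 1.07% in WT (751 reads) in the first of its 2 windows, and at 18.3% in Fbxl10 T/T (115 reads) and 2.92% in WT (308 reads) in the second, 15.3 points higher and short of the call. Irf2, Creb1, Erap1 (which trims peptides) and Pdia3 (of the peptide-loading complex) stayed at 3.33% or lower in Fbxl10 T/T and at 3.77% or lower in WT. Rfx5, a subunit of the factor that binds the X box of MHC promoters, had only 1 or 2 CpGs per window and so was not tested; the better covered CpG was at 65.4% in Fbxl10 T/T (78 reads) and 4.42% in WT (113 reads).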

How the data were processed

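DNA methylation was measured in 5 mouse ES cell libraries, 1 per genotype. Per the submitters' processing notes BSMAP 2.74 and mm9 were used; trimming and removal of duplicates are not given in the sources used here. Per the file headers, each row is 1 cytosine, and CpGs stand on the + strand with both strands summed. The deposited counts are raw reads showing C, and C or T. The deposited expected counts are, by the authors' own scaling, the C or T reads corrected for variants seen on the opposite strand, and the deposited fraction is the C reads over these; the expected counts served as an alternative and the fraction was not used. Methylation levels are summed C reads over summed C or T reads at CpGs outside CCGG with at least 1 read in both libraries compared, in 1000-base windows of the autosomes and X, with 95% Wilson intervals and Newcombe intervals for differences. A read covering several CpGs counts at each, so intervals are too narrow. Fisher's exact test was used for Ring1B -/-, Eed -/- and Ezh2 -/- only.

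The spans, genes, lists and thresholds were chosen with earlier results of these data known. Windows named were those at placed promoters, the 6 largest rises and 3 largest falls per span, and any called by Fisher's test; chr17:35457001-35458000 and chr17:36298001-36299000 were added after their values were seen. Promoters were matched with seeds of 7 bases, at least 18 bases and 0 mismatches, and all 13 chromosome 17 promoters placed kept 1 spacing to their RefSeq positions; no coordinate was moved between builds. Scripts used Python 3.11.15, numpy 2.4.6, pandas 2.3.3, scipy 1.17.1 and matplotlib 3.10.9, and the window calls were tested on simulated data. Alternatives covered read minimums, CCGG sites, scaled reads, CpGs read in all 5 libraries, a cap on depth, means over CpGs, window offset, and other sizes of CpG, read and difference thresholds.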

Additional observations from a re-analysis of the deposited data

Results flagged for a closer look

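CpGs inside CCGG, which the comparisons left out, were methylated above WT in several libraries. In Fbxl10 T/T they were at 67.3% in the H2-Q span (1685 reads) and 67.2% in the H2-T span (1072 reads), against 39.2 and 39.3% in WT. In Ring1B -/- they were at 59.5% in the H2-Q span (111 reads) against 41.2% in WT, and at 70.1% in the H2-T span (67 reads) against 49.9% in WT. In Ezh2 -/- they were at 55.1% in the H2-Q span (89 reads) against 40.9% in WT. The intervals overlapped in the other comparisons: Eed -/- was at 47% (H2-Q) against 40.7% in WT and at 59.2% (H2-T) against 50.5% in WT, and Ezh2 -/- at 44.3% (H2-T) against 38.9% in WT. Over the autosomes and X these sites stood at 48.0% in Fbxl10 T/T, 50.7% in Ring1B -/-, 47.5% in Ezh2 -/- and 46.3% in WT.

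Cytosines outside CpG read as C more often than in WT in 3 of 8 comparisons of a mutant and a span, by intervals that do not overlap. In Ring1B -/- the share was 2.20% in the H2-Q span against 0.708% in WT, and 2.41% in the H2-T span against 0.523% in WT. In Eed -/- it was 4.17% in the H2-Q span against 0.708% in WT. In the other comparisons it was 0.450% (H2-Q) and 0.279% (H2-T) in Fbxl10 T/T, 0.247% in Eed -/- (H2-T), and 1.09% (H2-Q) and 0% (H2-T) in Ezh2 -/-, against 0.708% (H2-Q) and 0.523% (H2-T) in WT. Over the autosomes and X it was 2.62% in Ring1B -/-, 2.83% in Eed -/-, 2.10% in Ezh2 -/- and 0.688% in Fbxl10 T/T, against 1.02% in WT. What these shares add to the CpG levels was not tested.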

How the results depend on the processing

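The 15 windows higher in Fbxl10 T/T stayed at least 20 points higher in all 125 values that alternatives gave for them, between 31.5 and 79.7 points. A window that no longer had enough CpGs or reads under an alternative gave no value there. Windows shifted by 500 bases are not among these values. Of 150 values for span levels and counts of called windows under 12 alternatives, 132 held, 17 moved and 1 reversed. The cause was not tested unless stated. A change of sign counted as reversed only where the main interval excluded 0. With CpGs inside CCGG kept, Ring1B -/- minus WT (H2-T) went from -2.61 to 7.66 and counted as moved. Eed -/- minus WT (H2-T) went from -1.50 to 2.27 and counted as held. In the H2-Q span Ring1B -/- and Ezh2 -/- had 0 windows tested in the main setting, so counts that held there say little. With CpGs inside CCGG kept, Fbxl10 T/T minus WT was 37.5 points (H2-Q) and 37.9 (H2-T). Ring1B -/- minus WT was then 7.66 (H2-T), and Ezh2 -/- minus WT reversed to 0.281 (H2-Q). Under these alternatives windows of the Polycomb mutants were counted by size alone, without Fisher's test. With CpGs inside CCGG kept, 1 of 3 H2-Q windows was higher in Ring1B -/-, and 440 of 13850 over the autosomes and X. In Eed -/- 1 of 4 H2-Q windows was higher and 1 lower, and 185 of 14201 over the autosomes and X were higher. With only CpGs read in all 5 libraries, which leaves 33 CpGs in the H2-Q span and 8 in the H2-T span, Fbxl10 T/T minus WT was 33.9 (H2-Q) and 30.1 (H2-T), 5 and 1 windows were called, and Eed -/- minus WT was -7.81 (H2-T). With at least 5 reads per CpG the H2-Q difference was 22.98 in Ring1B -/- (6 CpGs), -12.5 in Eed -/- and -14.2 in Ezh2 -/-. With at least 10 it was -22.6 in Eed -/- (2 CpGs), and -1.99 in Ezh2 -/- for H2-T. In Eed -/- 1 H2-Q window met the size rule alone at a difference of 10 points, and 1 with windows shifted by 500 bases. Depth limits the Polycomb mutants most, since their span values rest on 94 to 203 reads. No paired analysis was possible because each genotype had 1 library.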
